A study of Homo sapiens with 4 samples.

Results

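The genes described here are ATF4 and 9 of its targets in the response to amino acid shortage, namely DDIT3, TRIB3, ASNS, CHAC1, SESN2, PSAT1, SLC7A5, SLC3A2 and GDF15. They were taken by symbol from the deposited gene table, in which each of the 10 had 1 row among 60048 genes. They were chosen by pathway and with the auxin against control values of these same libraries in view, in which SLC7A5 and GDF15 had already stood out. Their values under that comparison are therefore given as a description, without a test.

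The cells were HCT116, a human colorectal carcinoma line of genotype RAD21-mAC, in which the cohesin subunit RAD21 carries a tag that leads to its degradation when auxin is present. Newly made RNA was followed by EU-seq, in which RNA made while cells take up the uridine analogue 5-ethynyl uridine (EU) is captured and sequenced, here after 20 min with 0.5 mM EU. The control group (2 libraries) received DMSO, and the auxin group (2 libraries) was kept for 3 h in the auxin indole-3-acetic acid at 0.5 mM; both groups carry the tagged RAD21. Nothing in the labels says that the replicates came from separate cultures, so their spread may be technical.

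The integrated stress response is set off when kinases phosphorylate the translation factor eIF2, which slows protein synthesis in general while the mRNA of ATF4 is translated more. ATF4, a bZIP transcription factor that pairs with C/EBP proteins, then activates genes for amino acid synthesis and uptake, tRNA charging, redox defence and, when the stress lasts, cell death. Because ATF4 is controlled largely at translation, the nascent RNA of ATF4 itself and that of its targets are separate readouts.

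Values were a signal per gene, brought to a common scale between libraries. Whether introns were counted is not stated in the sources used here. Values per kilobase below divide by the whole span that the table gives a gene. The total per library lay between 61135244 and 93113007 on the deposited scale, and how many reads a value rests on is not known. All 10 genes passed the filter on low values, together with 39464 genes in all. All 10 colorectal epithelial markers checked (EPCAM, keratins, claudins and others) carried signal in every library, with a sum of 64842 to 72221 per library. The sum over 10 markers of blood, stromal, vascular, liver, muscle and glial cells was 1024 to 1596, most of it from COL1A1, and it was higher in both auxin libraries than in both control libraries; the part of this in the results below was not tested.

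The promoters of 4 of the genes are shown first, because ATF4 and C/EBP partners bind a composite element whose core reads TGATGNAA. These are the 250 bases before the RefSeq start site (GRCh38.p14), written 5′ to 3′ on the gene's strand, with matches to the core on either strand in capitals. ASNS and CHAC1 are shown because they hold the core, and SLC7A5 and GDF15 because they had the largest differences between groups. The ASNS window (chr7:97872409-97872658, minus strand, before the first of 2 listed starts), the CHAC1 window (chr15:40953221-40953470, plus strand), the SLC7A5 window (chr16:87869508-87869757, minus strand) and the GDF15 window (chr19:18385908-18386157, plus strand) read as follows.
ASNS: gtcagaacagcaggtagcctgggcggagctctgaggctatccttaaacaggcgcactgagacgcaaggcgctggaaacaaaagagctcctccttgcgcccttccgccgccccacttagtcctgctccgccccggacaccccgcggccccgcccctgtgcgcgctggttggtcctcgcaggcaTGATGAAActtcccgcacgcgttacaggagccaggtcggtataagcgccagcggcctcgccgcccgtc
CHAC1: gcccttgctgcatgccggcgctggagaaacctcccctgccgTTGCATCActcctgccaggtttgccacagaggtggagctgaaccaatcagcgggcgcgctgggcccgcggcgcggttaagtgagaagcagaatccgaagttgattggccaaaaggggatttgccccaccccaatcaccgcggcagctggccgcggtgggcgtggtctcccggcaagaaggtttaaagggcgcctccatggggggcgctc
SLC7A5: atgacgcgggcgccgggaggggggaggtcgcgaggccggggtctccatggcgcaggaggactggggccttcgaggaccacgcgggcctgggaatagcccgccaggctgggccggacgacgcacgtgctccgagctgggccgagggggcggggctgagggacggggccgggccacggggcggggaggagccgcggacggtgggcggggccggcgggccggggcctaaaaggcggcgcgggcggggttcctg
GDF15: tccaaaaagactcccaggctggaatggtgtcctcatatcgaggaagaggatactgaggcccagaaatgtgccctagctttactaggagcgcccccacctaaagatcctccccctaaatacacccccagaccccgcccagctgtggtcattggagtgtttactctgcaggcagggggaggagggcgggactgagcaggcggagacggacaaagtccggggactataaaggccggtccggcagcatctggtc

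The ASNS match, TGATGAAA, begins at position -68 from the start site, and the CHAC1 match, TTGCATCA on the gene's strand, begins at -209. Another match, TTACATCA, lay at position 38 after one of the listed starts of SLC3A2. All 10 genes had at least 1 RefSeq window (250 bases before to 50 after a start), and these 3 held the core, against 3.56% of 15793 tested genes with a window and 3.62% of all 35116 windows. The windows of SLC7A5, GDF15, TRIB3, DDIT3, SESN2, PSAT1 and ATF4 hold no match, which says only that these letters are not in those windows. A match to TGANTCA, the AP-1 motif, was found in DDIT3 and SLC3A2 (8.26% of tested genes), and one to the E-box CACGTG in SLC7A5 and ATF4 (10.9%). No window of the 10 matched the endoplasmic reticulum stress element (CCAAT, 9 bases of any kind, CCACG).

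The 10 genes did not share 1 direction. Both auxin libraries lay above both control libraries for GDF15, SLC7A5, TRIB3, SESN2, DDIT3 and CHAC1, and below them for PSAT1 and SLC3A2, while the groups overlapped for ATF4 and ASNS. Over all tested genes 18.6% had both auxin libraries above both control libraries and 19.6% had both below; since the choice of genes used this comparison, the counts of 6 and 2 are read no further. The fit across all genes called 131 genes higher (0.332%) and 158 lower (0.4%). GDF15 and SLC7A5 are among the 131, which describes how the set was chosen and is no test of them. The median log2 fold change was 0.36 over the 10 genes and 0.0089 over all tested genes.

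**Figure D1:**
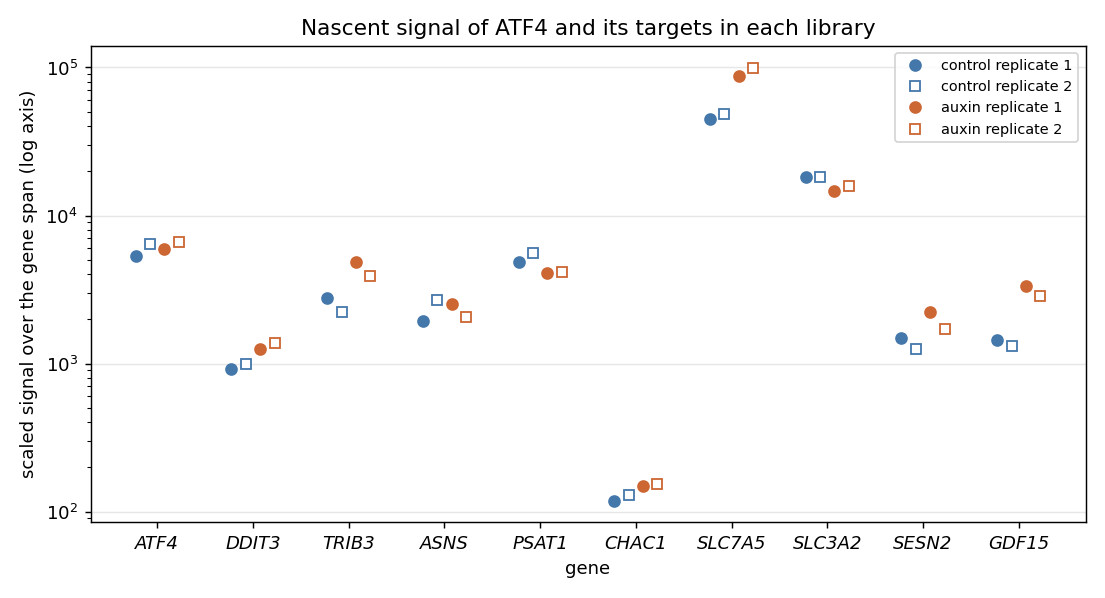
Scaled signal of each gene in each of the 4 libraries on a log axis, with control in blue, auxin in orange, circles for replicate 1 and open squares for replicate 2. SLC7A5 and GDF15 have the widest gap between the groups, and the groups overlap for ATF4 and ASNS.

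ATF4 (ENSG00000128272, GRCh38 chromosome 22, 39519695 to 39522683, plus strand) is the transcription factor at the head of the set. Its scaled signal was 5316 and 6375 in the control libraries and 5974 and 6584 in the auxin libraries. The groups overlapped, and the difference between the control replicates (0.26 on the log2 scale) was larger than the fitted log2 fold change of 0.11 (SE 0.14). Without control replicate 1 the fitted change was -0.014. The table lists 4 processed copies of ATF4, of which ATF4P3 and ATF4P4 carried a mean of 592 and 614 in control and 629 and 648 in auxin; reads of near-identical copies may have been divided among them.

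DDIT3 (ENSG00000175197, chromosome 12, 57516588 to 57521737, minus strand) encodes CHOP, a bZIP factor induced by ATF4 and linked to cell death under lasting stress. It had a scaled signal of 926 and 992 in control and 1251 and 1376 in auxin. Both auxin libraries were higher, with a log2 fold change of 0.45 (SE 0.17), and the replicates of a group differed by at most 0.14. AC022506.1, which lies within its span on the same strand and cannot be told apart from it, had 460 and 476 in control and 689 and 743 in auxin. RefSeq also draws MARS1, on the plus strand, to 57516652, just past the edge of the DDIT3 row at 57516588. Its part in the DDIT3 signal was not tested.

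TRIB3 (ENSG00000101255, chromosome 20, 362835 to 391386, plus strand), a pseudokinase that restrains AKT and ATF4 itself, is a feedback target. Its scaled signal was 2774 and 2224 in control and 4880 and 3919 in auxin. Every auxin library exceeded every control library, the 4 single pairs differing by 0.50 to 1.13 on the log2 scale, and the fitted log2 fold change was 0.82 (SE 0.17). In both groups replicate 1 was higher than replicate 2, by 0.32 in each. The table's row for TRIB3 begins 17925 bases before the RefSeq gene and ends 6173 bases short of its end, so the value leaves out the last part of the gene as RefSeq draws it.

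Of the amino acid synthesis enzymes, ASNS (ENSG00000070669, chromosome 7, 97851677 to 97872408, minus strand), which makes asparagine and is a standard reporter of ATF4 activity, had 1926 and 2697 in control and 2532 and 2058 in auxin. The auxin values lay between the control values, and the log2 fold change was 0.0024 (SE 0.19), from -0.23 without control replicate 1 to 0.24 without control replicate 2. PSAT1 (ENSG00000135069, chromosome 9, 78297125 to 78330093, plus strand), a transaminase of serine synthesis, had 4870.4 and 5623 in control and 4089 and 4127 in auxin. The auxin libraries were both below both controls, with a log2 fold change of -0.35 (SE 0.14), against 0.21 between the control replicates.

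All but the 3′ end of ASNS lies inside the lncRNA AC079781.5, which is on the same strand and spans 121298 bases, and signal there cannot be assigned to one or the other. AC079781.5 averaged 6847 in control libraries and 6568 in auxin libraries (log2 fold change -0.060, limma adjusted p = 0.961). PSAT1 has 4 listed processed copies, of which PSAT1P3 had the most signal, a mean of 342 in control and 384 in auxin.

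CHAC1 (ENSG00000128965, chromosome 15, 40953471 to 40956512, plus strand), which breaks down glutathione, carried the least signal of the set. The scaled signal was 119 and 129.96 in control and 148 and 153 in auxin. Both auxin libraries were higher, but the log2 fold change of 0.27 was hardly larger than its standard error of 0.25.

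SLC7A5 (ENSG00000103257, chromosome 16, 87830023 to 87869507, minus strand) encodes LAT1, the light chain of the transporter that takes up leucine and other large neutral amino acids. The control libraries held a scaled signal of 44779 and 48284, and the auxin libraries 87290 and 99835. The mean was 46531 ± 2479 without auxin against 93562 ± 8871 with it (SD, n = 2 libraries per group), a ratio of 2.01 and a log2 fold change of 1.01 (SE 0.097). The single pairs gave 0.85 to 1.16, and the replicates of a group differed by at most 0.19. Of its 2 listed copies, SLC7A5P2 had a mean of 1042 in control and 1295 in auxin and SLC7A5P1 one of 704 and 654, both small beside SLC7A5.

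SLC3A2 (ENSG00000168003, chromosome 11, 62856144 to 62888853, plus strand) encodes 4F2hc, the heavy chain with which LAT1 pairs at the cell surface. Its scaled signal was 18210.4 and 18303 in control and 14754 and 15814 in auxin. The auxin libraries were both lower, with a log2 fold change of -0.26 (SE 0.11), the opposite direction to its partner. On the deposited scale, without scaling between libraries, the groups of SLC3A2 and PSAT1 overlapped, the SLC3A2 values being 18198 and 18567 in control and 12035 and 19126 in auxin.

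Within a library the ratio of 2 genes does not depend on how libraries were scaled. Per kilobase of span, SLC7A5 carried 2.04 and 2.19 times the signal of SLC3A2 in the control libraries and 4.90 and 5.23 times in the auxin libraries. The mean ratio was 2.11 ± 0.105 without auxin and 5.07 ± 0.232 with it (SD, n = 2 libraries per group). Relative to ATF4 per kilobase, GDF15 stood at 0.269 and 0.204 in control and 0.557 and 0.433 in auxin, and SLC7A5 at 0.638 and 0.573 in control and 1.11 and 1.15 in auxin. TRIB3, DDIT3 and CHAC1 were also higher relative to ATF4 in both auxin libraries, PSAT1 and SLC3A2 were lower, and for ASNS and SESN2 the groups overlapped.

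**Figure D2:**
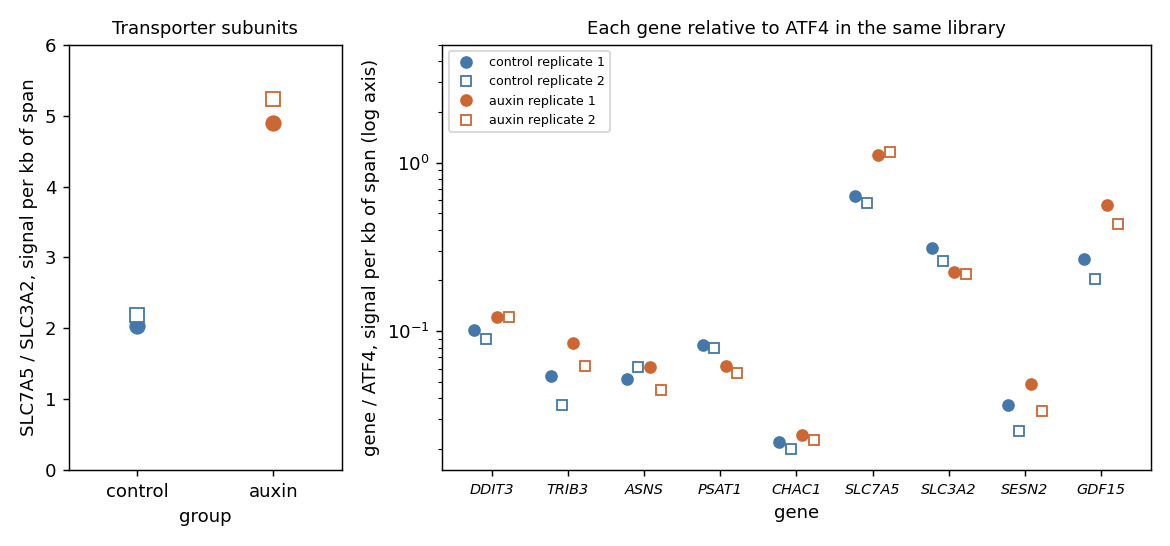
Ratios of signal per kilobase of span within each library, with SLC7A5 over SLC3A2 on a linear axis from 0 (left) and each gene over ATF4 on a log axis (right); symbols mark the 2 control and 2 auxin libraries. The SLC7A5 to SLC3A2 ratio is 2.04 and 2.19 in control and 4.90 and 5.23 in auxin.

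SESN2 (ENSG00000130766, chromosome 1, 28259518 to 28282491, plus strand) encodes a leucine-binding inhibitor of mTORC1 signalling and is also a p53 target. SESN2 had a scaled signal of 1484 and 1254 in control and 2236 and 1708 in auxin. Both auxin libraries were higher, with a log2 fold change of 0.52 (SE 0.19), but they differed from each other by 0.39, and the nearest pair of an auxin and a control library by 0.20.

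GDF15 (ENSG00000130513, chromosome 19, 18386158 to 18389176, plus strand), a secreted stress hormone induced by ATF4, CHOP and p53, had the largest log2 fold change of the set. Its scaled signal was 1442 and 1314 in control and 3361 and 2880.4 in auxin. The mean was 1378 ± 90.6 without auxin against 3121 ± 339.7 with it (SD, n = 2 libraries per group), a ratio of 2.26 and a log2 fold change of 1.18 (SE 0.16). The single pairs gave 0.998 to 1.35. The auxin replicates differed by -0.22 (replicate 2 minus replicate 1), and the groups were far from overlapping.

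**Figure D3:**
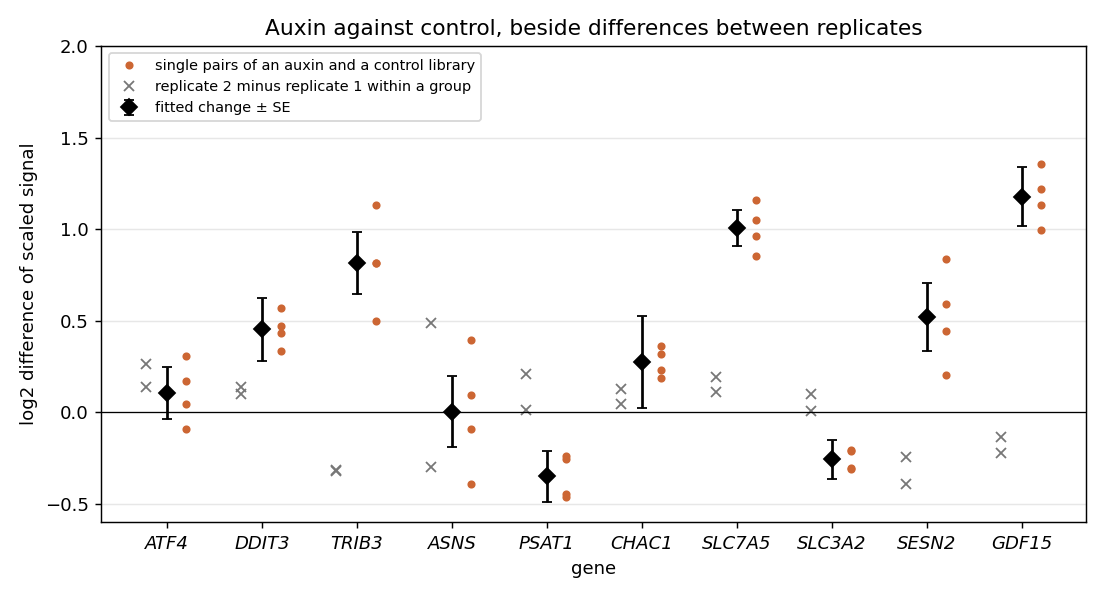
Log2 differences per gene, with the fitted auxin against control change and its standard error (black), all 4 pairings of auxin with control libraries (orange) and replicate 2 minus replicate 1 within each group (grey crosses). The pairs lie away from 0 on 1 side for 8 genes and on both sides for ATF4 and ASNS.

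In level, compared per kilobase of span, ATF4 stood first in control with a mean of 1956, followed by SLC7A5 (1178), SLC3A2 (558), GDF15 (456), DDIT3 (186), PSAT1 (159), ASNS (111), TRIB3 (87.5), SESN2 (59.6) and CHAC1 (40.9). Only ASNS and TRIB3 overlapped among neighbours in that order, at 92.9 to 130.1 and 77.9 to 97.2 per kilobase. In auxin SLC7A5 (2370 per kilobase, range 2211 to 2528) stood above ATF4 (2101, range 1999 to 2203), and GDF15 (1034) above SLC3A2 (467). Each value per kilobase rests on the span the table gives the gene. The row of ATF4 begins 864 bases before the RefSeq gene, so its place relative to SLC7A5 in either group depends on that span. The rows of TRIB3, ASNS and DDIT3 also differ from the RefSeq spans, so their places depend on the span too. This holds most for TRIB3, whose row of 28552 bases begins 17925 bases before the RefSeq gene. The overlap of TRIB3 with ASNS and its place below DDIT3 and PSAT1 rest on that row.

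The rest of the pathway was followed through 113 other genes in 10 lists, of which 112 were tested; FGF21, a hormone target of ATF4, was too low. None of the 112 was called in either direction by limma (adjusted p under 0.05, against 0.732% of all tested genes and 1.3% of the 15994 protein-coding genes averaging 50 or more). That fit took the libraries as unpaired, as do the calls on each list and locus below. With the replicate number as a block some of the 112 were called, as given at the end. At an unadjusted p under 0.05, 12 were higher and 11 lower, or 20.5%, against 10.2% of all tested genes (4.75% higher and 5.47% lower) and 15.7% of those protein-coding genes. Both auxin libraries lay above both controls for 24 (21.4%) and below for 32 (28.6%), against 20.8% and 24.8% of those protein-coding genes. Their median log2 fold change was -0.022, with 53 positive and 59 negative values. For 4 eIF2 kinases the counts above and below both controls were 1 and 1, and for 10 eIF2-related subunits 2 and 4. Among 13 bZIP genes they were 5 and 3, and among 9 serine, glycine and folate enzymes 0 and 7. Among 9 other enzymes they were 1 and 3, among 14 transporters 2 and 2, and among 20 synthetases 2 and 8. Among 13 stress effectors they were 3 and 3, among 15 endoplasmic reticulum genes 6 and 0, and among 5 paralogues 2 and 1.

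Leaving out 1 auxin library brought more calls over the whole table, some of the other pathway genes among them. Such a fit rests the auxin group on 1 library, whose spread is not measured, so these calls are read no further. Without auxin replicate 1 they were ATF3, PPP1R15A, JDP2, CARS1 and VEGFA. With all 4 libraries their log2 fold changes were 1.02, 0.56, 0.64, 0.55 and -0.53. Without auxin replicate 2 they were SLC7A11, ADM2, MTHFD1 and MTHFD1L, at 0.79, 0.94, -0.54 and -0.42 with all 4 libraries. None of the other pathway genes was called with a control library left out. These names were chosen after their values were seen.

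**Figure D4:**
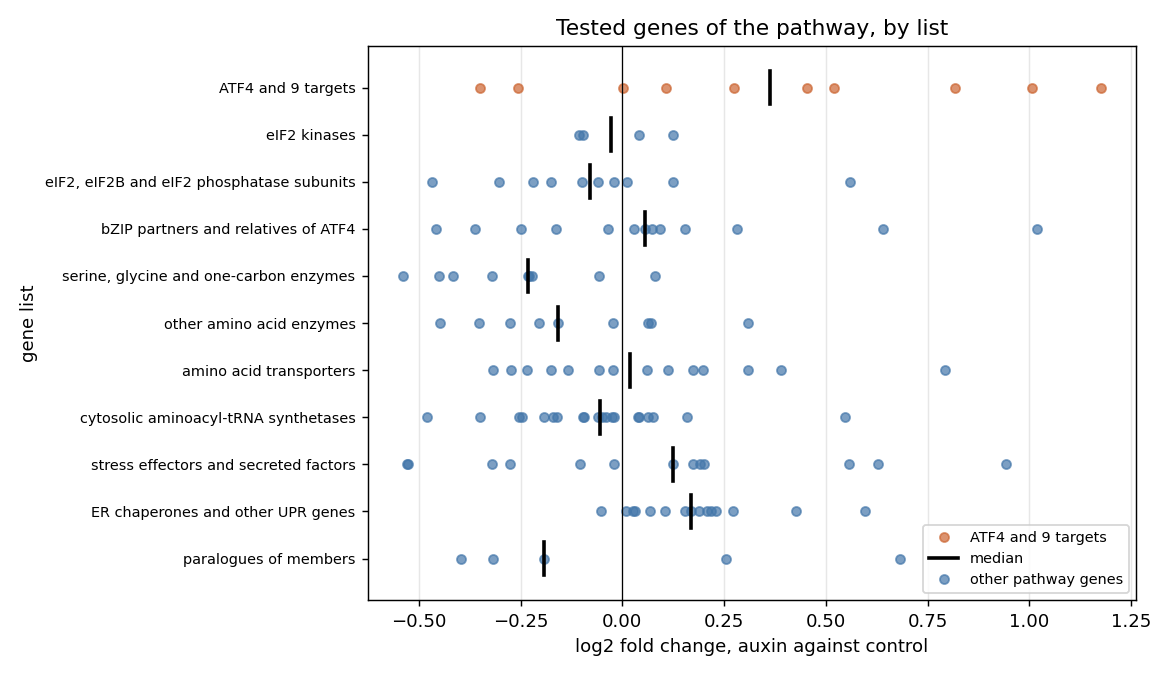
Log2 fold change of auxin against control for each tested gene (points), with ATF4 and its 9 targets in orange, 10 lists of other pathway genes in blue and the median of each list as a bar. The endoplasmic reticulum list lies mostly to the right of 0, with 14 of 15 values positive. The serine, glycine and folate list lies mostly to the left, with 8 of 9 negative. No blue point was called in the unpaired fit.

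Upstream of ATF4, the 4 eIF2 kinases had log2 fold changes between -0.11 and 0.12, with EIF2AK1, the haem-regulated kinase, at -0.11 (SE 0.12, limma adjusted p = 0.891). Among 10 subunits of eIF2, of its exchange factor eIF2B and of the eIF2 phosphatase, the median was -0.079. EIF2B3, a subunit of the exchange factor, had 13245 and 12480.5 in control and 9467 and 9148 in auxin, and both auxin libraries were lower (log2 fold change -0.47, limma adjusted p = 0.129, not past the threshold).

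Of 13 bZIP partners and relatives, the median log2 fold change was 0.055. ATF3, itself a stress-induced target of ATF4, had 1047 and 1536 in control and 2071 and 3187 in auxin. The auxin libraries were both higher (log2 fold change 1.02, SE 0.24), and the limma adjusted p of 0.108 missed the threshold. With 1 library left out the log2 fold change ran from 0.71 (without auxin replicate 2) to 1.34 (without auxin replicate 1).

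The serine, glycine and folate-dependent enzymes, some but not all of them known as ATF4 targets, had 8 of 9 values below 0 and a median of -0.23. In 7 of the 9 both auxin libraries lay below both controls, against 19.6% of all tested genes and 24.8% of the protein-coding genes averaging 50 or more. For PHGDH and MTHFD2 the groups overlapped (log2 fold change 0.080 and -0.23). MTHFD1, a cytosolic folate enzyme, had 12387 and 13451 in control and 8220.5 and 9609 in auxin (log2 fold change -0.54, limma adjusted p = 0.109). With 1 library left out the log2 fold change ran from -0.42 (without auxin replicate 1) to -0.65 (without auxin replicate 2). None of the 9 was called. Among 9 other amino acid enzymes the median was -0.16, and the smallest p belonged to ALDH18A1 of proline synthesis (log2 fold change -0.35, limma adjusted p = 0.325).

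Among 14 other amino acid transporters the median was 0.019, with 7 values on either side of 0. SLC7A11, the cystine importer and a shared target of ATF4 and NRF2, had 2398 and 2415 in control and 5289 and 3292 in auxin. Both auxin libraries were higher but far apart (log2 fold change 0.79, limma adjusted p = 0.146). Without auxin replicate 1 the log2 fold change was 0.46, and without auxin replicate 2 it was 1.13.

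Of the 20 cytosolic aminoacyl-tRNA synthetases, which load amino acids onto tRNAs and many of which ATF4 induces, 6 had positive and 14 negative values, with a median of -0.054. The smallest p belonged to FARSB, the beta subunit for phenylalanine (12716 ± 1248 without auxin and 9092 ± 21.8 with it, SD, n = 2 libraries per group; log2 fold change -0.48, limma adjusted p = 0.138). The table's MARS1 row spans only 4167 bases, while the RefSeq gene runs from 57488068 to 57516652 on chromosome 12.

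Of 13 tested stress effectors and secreted factors the median was 0.12. STC2, a secreted glycoprotein induced by ATF4, had 11906 and 11351 in control and 17057 and 17138 in auxin. Its log2 fold change was 0.56 (SE 0.11) and the limma adjusted p 0.0567, and 0.0381 when libraries were scaled by their totals alone. With median-ratio scaling, other filters or other pseudocounts the limma adjusted p ran from 0.0543 (pseudocount of 10) to 0.0937 (no filter on low values). On the deposited scale STC2 was not called. Of 15 endoplasmic reticulum chaperones and other unfolded protein response genes, 14 values were above 0 with a median of 0.17, against 20236 of 39464 values above 0 over all tested genes. In 6 of the 15 both auxin libraries lay above both controls, against 18.6% of all tested genes and 20.8% of the protein-coding genes averaging 50 or more. HERPUD1, which takes part in degradation of misfolded proteins, had 2341 and 1961 in control and 3162 and 3319 in auxin (log2 fold change 0.60, limma adjusted p = 0.149).

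The 5 paralogues were not called. SESN3 had 181 and 265 in control and 340 and 365 in auxin (log2 fold change 0.68, limma adjusted p = 0.329), and SESN1 had a log2 fold change of 0.25 (adjusted p = 0.722). TRIB1 and TRIB2 had values of -0.32 (limma adjusted p = 0.535) and -0.40 (0.735), against 0.82 for TRIB3, and CHAC2 had -0.19 (0.857). Whether TRIB3 differed from its paralogues was not tested.

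Promoter windows were matched for 92 of the other pathway genes, and 20 of them (21.7%) held TGATGNAA, against 3.56% of tested genes. The 19 of these that were also tested had a median log2 fold change of 0.037, with 10 positive and 9 negative, and the 72 tested genes whose windows lacked it had one of 0.027. Over all tested rows of the table whose symbol has a window, some symbols having several rows, the median was 0.0058 for the 563 with the core and -0.0072 for the 15250 without. Called genes made up 1.07% of the former and 1.19% of the latter.

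At each locus the overlapping genes and the nearest tested protein-coding gene on either side were compared. None of the 20 neighbours was called by limma, and their median log2 fold change was 0.018. Of the 20, 3 had an unadjusted p under 0.05, against 10.2% of all tested genes. Among protein-coding genes averaging 50 or more it was 15.7%. The 3 were PGPEP1, KLHDC4 and CHRM1. PGPEP1, a peptidase gene that ends 16.2 kb before GDF15 on the same strand, had 2140 and 1874 in control and 3388 and 2996 in auxin (log2 fold change 0.67, limma adjusted p = 0.104). On its other side LRRC25, 1.96 kb away, had 51.7 and 43 in control and 37.5 and 25.8 in auxin (log2 fold change -0.58, limma adjusted p = 0.725). At SLC7A5, KLHDC4 had a log2 fold change of -0.27 (limma adjusted p = 0.41) and CA5A one of 0.074 (0.975). At SLC3A2 the values were -0.24 for WDR74 and 0.90 for CHRM1, whose control mean was only 37.3.

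**Figure D5:**
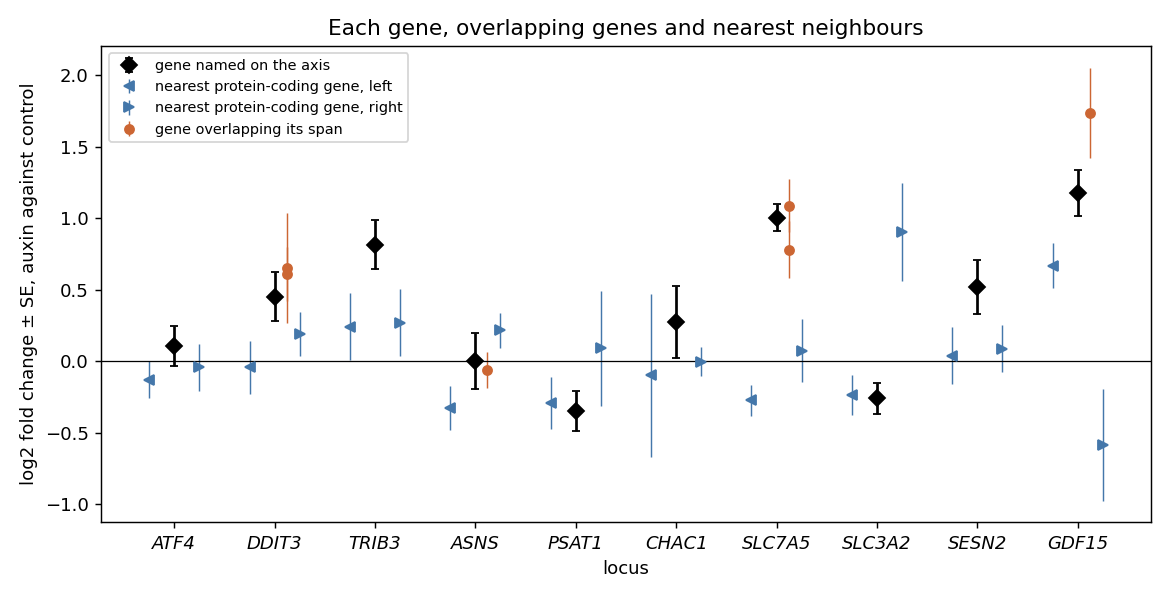
Log2 fold change with its standard error for each gene (black), for tested genes that overlap its span (orange) and for the nearest tested protein-coding gene on the left and right (blue triangles). The overlapping genes of SLC7A5 and GDF15 lie high with them, and PGPEP1, left of GDF15, is at 0.67.

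Genes inside the spans of SLC7A5 and GDF15 were higher with auxin too. AC126696.2, a lncRNA on the opposite strand within SLC7A5, had 816 and 1010 in control and 1751 and 2134 in auxin (log2 fold change 1.09). Its control mean per kilobase was 807, against 1178 for SLC7A5, and since the counting is not stated to use strand, the gene and its antisense partner cannot be told apart. MIR3189, a miRNA gene within GDF15, had 41.5 and 31.7 in control and 117 and 130.3 in auxin (log2 fold change 1.74). This cannot be told apart from signal of GDF15 and does not measure the mature miRNA. No p is given for AC126696.2 or MIR3189, since SLC7A5 and GDF15 were chosen with this signal in view.

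By the distance between log2 values centred on each gene's mean, over the 4 libraries, the 5 protein-coding genes nearest to the median profile of the 10 were CYTH2, BVES, GALNT3, SCYL2 and TNKS2, at distances of 0.035 to 0.0391 among 15984 candidates. Their log2 fold changes lay between 0.30 and 0.34. The median profile, at -0.22 and -0.12 in control and 0.15 and 0.14 in auxin, has a smaller difference between groups than GDF15 or SLC7A5.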

How the data were processed

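The authors deposited 1 table of scaled signal per gene for the 4 libraries; the values are not whole numbers, and the factor applied to each column, the counter, the annotation and the use of strand are not given in the sources used here. The submitters' processing notes name Trimmomatic 0.39, Bowtie2 2.4.5, deepTools 3.5.1, hg38 and dm6, with no roles; RNA of EU-labelled fly S2 cells had been mixed with the human RNA before capture. A column with a misspelt name was assigned to control replicate 2 by its number. Starts are printed 1 higher than in the table, on GRCh38, whose RefSeq spans have the same start and end for 5 of the 10 genes.

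The members, lists and tests were chosen with earlier results of these data known. Genes entered the fit with a summed value of 15 or more and, in 2 or more libraries, 10 or more after adjustment to the median library total. Scaling used trimmed means of M-values, which left out 30% of log ratios and 5% of levels at either end, and log2(value + 1) was fitted with limma 3.58.1 in R 4.3.3 (lmFit, then eBayes with trend) for auxin minus control, with Benjamini-Hochberg adjustment over 39464 genes at 0.05. Every fold change is on that log2(value + 1) scale. Any change in total nascent RNA is removed by the scaling. The procedure was also run on simulated data with noise drawn independently for each library. The outcome is not given here, and the calls above do not rest on it. Named genes were the 10 members, every paralogue, and the called genes of each list or else its gene with the smallest p. Overlapping genes, nearest neighbours and the 5 genes most alike were named too. Other names, such as PHGDH, MTHFD2, FGF21 and the copies of ATF4, PSAT1 and SLC7A5, were added outside this rule. Promoter sequences are RefSeq's. Tables and figures used Python 3.11.15, pandas 2.3.3 and matplotlib 3.10.9. Alternatives were other scalings, filters and pseudocounts, a replicate block and leaving out each library.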

Additional observations from a re-analysis of the deposited data

How the results depend on the processing

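Under the other scalings, filters and pseudocounts the log2 fold changes of the 10 genes moved by less than the pooled SD of replicates on the log2 scale. Leaving out 1 of 2 libraries shifts a value by about 0.5 of that group's replicate difference, so those values bear on no such comparison; ATF4 and ASNS changed sign among them. The count with both auxin libraries above both controls was 6, and 5 on the deposited scale; the count below was 2, and 0 on the deposited scale. With a library left out, which asks less of each gene, they were 6 to 8 and 2 to 3. The 289 calls over all genes (131 higher, 158 lower) became 55 on the deposited scale (28 and 27), where SLC7A5 and GDF15 were not called, and 132 to 681 with a library left out (63 to 358 higher, 69 to 385 lower): 132 without control replicate 2, 681 without auxin replicate 1 and 538 without auxin replicate 2. The cause was not tested. Of the other pathway genes, 1 was called higher with scaling by library total only (STC2); with a library left out 0 to 4 were called higher and 0 to 2 lower. A fit that leaves a group with 1 library assumes that it varies like the other group.

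No label ties equal replicate numbers to 1 day or culture, and with only 2 pairs the pairing could not be settled; replicate differences correlated across genes between the groups (Pearson's r 0.231 over all tested genes and 0.462 over those with a mean of 50 or more). Fitting the replicate number as a block gave 4273 calls, or 10.8% of tested genes (1944 higher, 2329 lower). Among them were 12 of the 112 other pathway genes higher and 17 lower. ATF3, SLC7A11, STC2 and EIF2B3 were among them. Count models were not run, since the values are not counts, and the depth in reads is unknown.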
